A study of Mus musculus with 16 samples.

Results

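The genes described here are 44 genes of the presynaptic vesicle cycle, out of 53679 gene symbols in the deposited isoform table. They were chosen by name, as the rows whose gene symbol is on a list of synaptic vesicle proteins, calcium sensors, SNARE proteins, active zone proteins and endocytic proteins, and the values of their 268 isoforms were summed per symbol. The list was chosen with earlier results of these data known, so shares set against all genes are descriptive. All 44 genes were found, and all 44 passed the filter on low values in each comparison. The study asked whether tianeptine (TIA), an atypical antidepressant, alters the response of neurons to oxygen-glucose deprivation (OGD), a cell culture model of ischemia. Primary neuronal cultures (PNCs) of mouse cortex were prepared at embryonic day 15, pretreated on day 8 in vitro with vehicle or 10 μM TIA for 24 h, and exposed to 3-h OGD or sham on day 9. RNA was taken after 6 h of reoxygenation. The 4 groups of 4 cultures each were CONTROL-VEH (vehicle and sham, cultures 1 to 4), CONTROL-TIA (TIA and sham, cultures 5 to 8), OGD-VEH (vehicle and OGD, cultures 9 to 12) and OGD-TIA (TIA and OGD, cultures 13 to 16).

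At a chemical synapse, vesicles filled with transmitter are tethered by synapsins, docked and primed at the active zone, and fused with the plasma membrane by SNARE proteins when a calcium sensor of the synaptotagmin family binds calcium. The membrane is then retrieved by dynamin-dependent endocytosis and refilled. In cortical neurons these genes are switched on as axons form synapses, and their transcripts are counted among the markers of mature neurons.

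The OGD cultures of a group differed widely in these transcripts. The median of the 44 genes stood at 82.8% of the CONTROL-VEH mean in culture 9, at 53.3% in culture 10, 54.9% in culture 11 and 34.2% in culture 12. In OGD-TIA it stood at 92.3% of the CONTROL-TIA mean in culture 13, 84.9% in culture 14, 88.5% in culture 15 and 54.3% in culture 16. Culture 9 of OGD-VEH was closer to the TIA-treated cultures 13 to 15 than to the other vehicle cultures, and culture 16 of OGD-TIA was level with OGD-VEH cultures 10 and 11. CONTROL cultures ranged from 96.3% to 108% of their own arm's mean. Expression is given as FPKM, fragments scaled to transcript length and sequencing depth, summed over the isoforms of a gene. Depth, estimated from the FPKM of a single read in genes with 1 isoform, was 20.6 to 25.3 M reads per culture. This rough estimate reaches above the stated range of 18 to 23 M aligned reads, and the reason was not tested.

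Presynaptic transcripts were lower after OGD. In OGD-VEH vs. CONTROL-VEH, 9 of the 44 genes were differentially expressed genes (DEGs, here an adjusted p [padj] up to 0.05 together with a change of 1 or more on the log2 scale), and all of them were downregulated (20.5%), against 1.68% of the 16346 genes tested. The 9 were the synapsins *Syn2* and *Syn3*, the vesicle protein *Syngr1*, the calcium sensors *Syt1* and *Rph3a*, the SNARE partners *Napb* and *Cplx2*, and the active zone genes *Rims1* and *Erc2*. With padj alone, 12 of 44 were lower (27.3%) against 3.45% of all genes, and at an unadjusted p under 0.05, 37 were lower (84.1%) against 14.9%. No presynaptic gene was higher by any of these measures. The median log2 fold change of the 44 was -0.94, against 0.10 for all genes tested, and 42 of 44 had a negative value (41.8% of all genes had one). Without culture 9, 25 presynaptic genes were DEGs, among 2186 of all genes. Without culture 12, 1 was (71 of all genes), and without any 1 of cultures 1, 2, 3, 4, 10 or 11, none was (1 to 18 of all genes). In each of these fits 33 to 38 of the 44 were still lower at an unadjusted p under 0.05, against 11.8 to 17.8% of all genes.

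**Figure D1:**
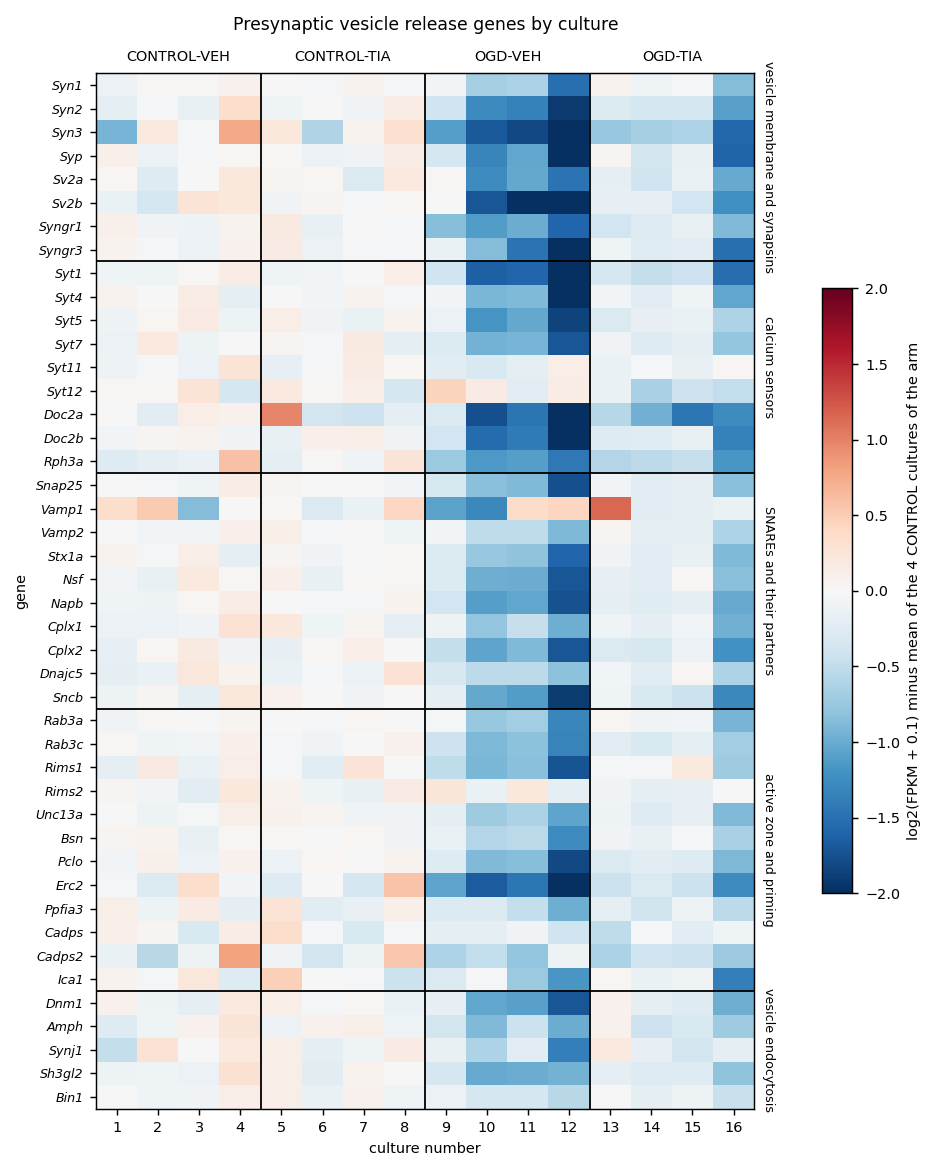
Each cell is the log2(FPKM + 0.1) of a gene (rows, grouped by role) in a culture (columns, by number) minus the mean of the 4 CONTROL cultures of the same arm, with the colours limited to 2 in either direction. Cultures 10, 11, 12 and 16 are blue over most rows, culture 9 and cultures 13 to 15 are pale, and *Syt11*, *Rims2* and *Cadps* stay pale in most cultures.

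The OGD effect was also estimated over both arms, as the mean of the effects without and with TIA in the 16 cultures. In this fit, 36 of 44 presynaptic genes were lower with a padj up to 0.05 (81.8%), against 13.7% of the 16313 genes tested, and leaving out any 1 culture gave 30 to 37 (against 10.7 to 16.8% of all genes). Of these, 6 were DEGs (13.6%, against 2.01%): *Syn3*, *Sv2b*, *Syt1*, *Doc2a*, *Doc2b* and *Erc2*. With isoforms weighted by length only *Syt1* and *Doc2b* were. *Syn3* (-0.90), *Sv2b* (-0.92), *Doc2a* (-0.92) and *Erc2* (-0.73) then fell short of the log2 threshold, with padj still at most 0.05. In the fit on summed isoforms the median log2 fold change of the 44 was -0.62, against 0.08 for all genes. For 8 genes (18.2%), every OGD culture of either arm lay below every CONTROL culture, against 2.42% of all genes: *Syn2*, *Syngr1*, *Syt1*, *Rph3a*, *Snap25*, *Napb*, *Rab3c* and *Pclo*. In the vehicle arm by itself this held for 28 of 44 (63.6%, against 9.95%), and in the TIA arm for 15 of 44 (34.1%, against 6.72%). RNA was taken from whole cultures, so fewer neurons and less of a transcript per neuron cannot be told apart.

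**Figure D2:**
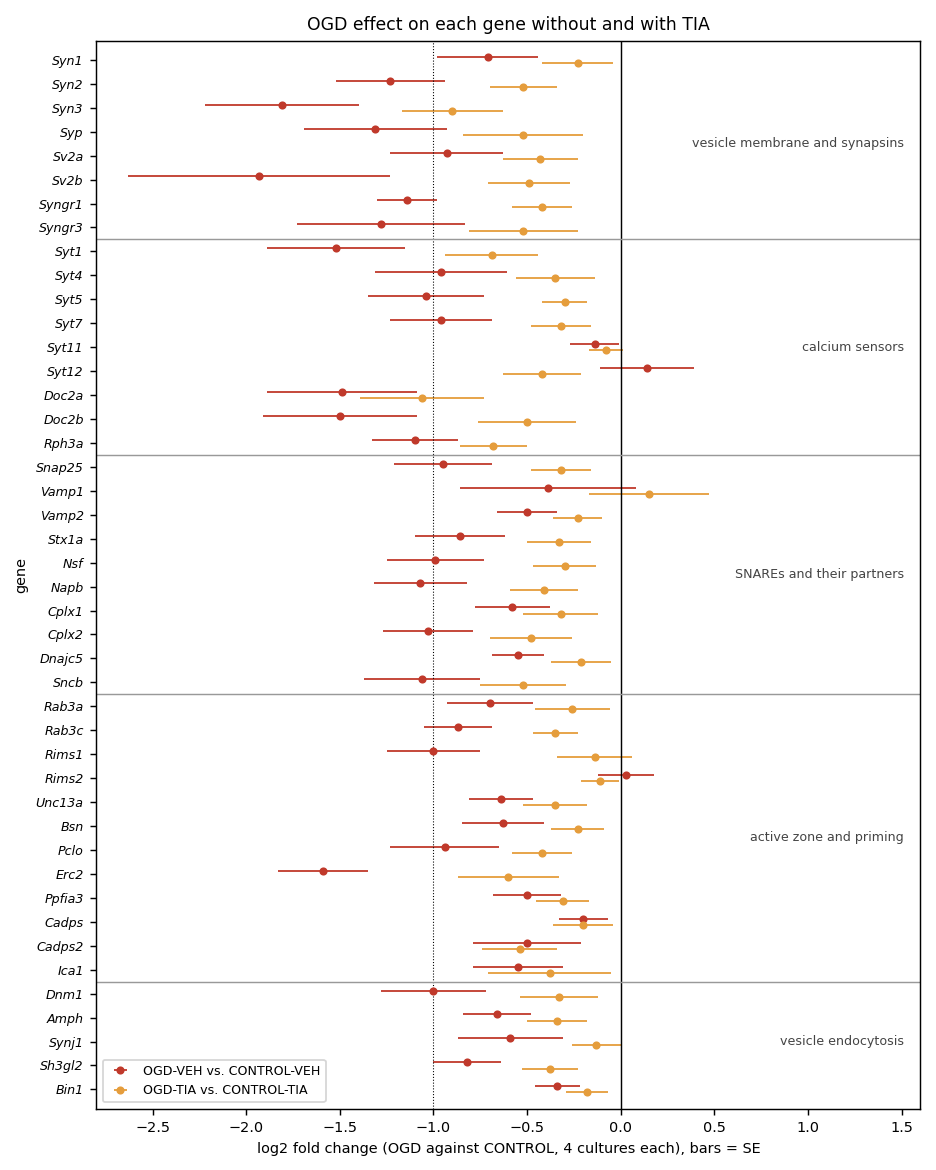
Points are the log2 fold change of each gene (rows, grouped by role) for the OGD comparison in the vehicle arm and in the TIA arm, with bars for the SE from limma and 4 cultures per group. Most vehicle points lie between -0.5 and -1.9 and the TIA points of most of these genes lie nearer to 0, while *Rims2*, *Syt11* and *Cadps* lie near 0 in both arms.

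Among the 8 genes of the vesicle membrane and the synapsins, 3 were DEGs without TIA, and 7 had a padj of at most 0.05 over both arms. Synapsins are phosphoproteins that hold vesicles in the reserve pool. *Syn2* (chr6:115134902-115282006) was at 68.3, 76.0, 69.3 and 98.4 FPKM in CONTROL-VEH cultures 1 to 4, and at 58.3, 31.7, 30.2 and 20.5 FPKM in OGD-VEH cultures 9 to 12. It was at 67.9, 72.4, 69.2 and 80.6 FPKM in CONTROL-TIA cultures 5 to 8, and at 60.1, 56.7, 56.4 and 34.1 FPKM in OGD-TIA cultures 13 to 16. Neither arm overlapped between OGD and CONTROL, and culture 12 was the lowest of all 16. Its log2 fold change was -1.23 ± 0.29 (SE, n = 4 per group, padj = 0.0443) without TIA and -0.52 ± 0.18 (padj = 0.195) with TIA. The exact permutation p was 0.0286 in each arm, the smallest that 4 against 4 cultures allow. The genes listed with values in every culture were picked by their limma results without TIA. In the vehicle arm their exact permutation p therefore only restates that the groups did not overlap.

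*Syn3* (chr10:86055125-86498896) was expressed at a lower level, 14.5, 31.7, 27.1 and 46.7 FPKM in CONTROL-VEH against 12.8, 8.59, 7.83 and 4.32 FPKM in OGD-VEH. With TIA the values were 27.1, 15.5, 24.7 and 29.3 FPKM in CONTROL-TIA and 13.9, 14.8, 15.2 and 7.88 FPKM in OGD-TIA. The groups did not overlap in either arm, and the CONTROL cultures spread widely. A 566-base isoform was between 0 and 23.8 FPKM in them and at most 0.008 FPKM in every OGD culture. The main isoform of 2360 bases was at 13.1 to 22.1 FPKM in CONTROL cultures and at 4.12 to 14.5 FPKM in OGD cultures, and fell by 0.74 on the log2 scale over both arms (padj = 0.0432). The gene sum had a log2 fold change of -1.81 ± 0.41 without TIA (padj = 0.0421, exact permutation p = 0.0286), and of -1.31 when isoforms were weighted by their length.

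*Syn1*, the third synapsin gene, had the smallest change of the family. It went from 126 ± 7.41 FPKM (SD, n = 4) in CONTROL-VEH to 82.0 ± 31.8 FPKM after OGD, a log2 fold change of -0.71 ± 0.27 with a padj of 0.101, and its padj over both arms was 0.0512.

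*Syngr1* (chr15:80091334-80119501) encodes synaptogyrin-1, a membrane protein of the vesicle, and had the smallest p of all 44 genes. It stood at 125, 110, 108 and 122 FPKM in CONTROL-VEH, and in OGD-VEH at 64.1, 53.2, 58.2 and 38.4. With TIA they were 112, 89.7, 99.0 and 96.4 FPKM in CONTROL-TIA and 75.5, 83.0, 89.3 and 53.8 FPKM in OGD-TIA. Even culture 9 was well below the CONTROL range. This gave a log2 fold change of -1.14 ± 0.16 without TIA (padj = 0.0281, exact permutation p = 0.0286) and of -0.42 ± 0.16 with TIA (padj = 0.218). In culture 9, a 576-base isoform was at 6.22 FPKM against 32.7 to 52.4 FPKM in CONTROL-VEH, while the main isoform of 4180 bases was at 53.8 FPKM against 60.6 to 65.3 FPKM.

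The other vesicle membrane genes did not pass padj without TIA. *Syp*, which encodes synaptophysin, went from 629 ± 40.5 FPKM without OGD to 290 ± 159 FPKM with it (log2 fold change -1.31 ± 0.38, padj = 0.0605). *Sv2b*, one of the vesicle glycoproteins that bind synaptotagmin, had a log2 fold change of -1.93 ± 0.70 without TIA (padj = 0.0933), which was -1.24 without culture 12 and -2.57 without culture 9, with 136 FPKM in culture 9 and 8.55 FPKM in culture 12 against 107 to 164 FPKM in CONTROL-VEH. *Sv2a* (329 ± 43.6 to 187 ± 98.2 FPKM, log2 fold change -0.93) and *Syngr3* (248 ± 16.6 to 123 ± 79.8 FPKM, log2 fold change -1.28) had padj of 0.0709 and 0.0883. All of *Syp*, *Sv2a*, *Sv2b* and *Syngr3* passed it over both arms, with padj from 0.0162 to 0.0320. Isoforms under 700 bases made up 64.7 to 79.9% of the summed FPKM of *Syp*, *Sv2a* and *Sv2b*.

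Of the 9 genes grouped as calcium sensors and their relatives, 2 were DEGs without TIA and 7 passed padj over both arms. *Syt1* (chr10:108497650-109010982) encodes synaptotagmin-1, the sensor for fast synchronous release in cortical neurons. It was at 95.7, 95.3, 103 and 112 FPKM in CONTROL-VEH, and in OGD-VEH at 76.7, 32.5, 33.5 and 18.2. It was at 92.2, 94.2, 99.1 and 108 FPKM in CONTROL-TIA and at 77.6, 70.3, 73.7 and 34.0 FPKM in OGD-TIA. OGD cultures were below CONTROL cultures throughout, and culture 9 was between the lowest of cultures 13 to 15 and their highest value. Without TIA the change on the log2 scale was -1.52 ± 0.37 (padj = 0.0447) and -0.69 ± 0.25 with TIA (padj = 0.202), each with an exact permutation p of 0.0286. Its leading isoforms of 4745 and 4820 bases fell alike over both arms, with log2 fold changes of -1.10 and -1.06.

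*Rph3a* (chr5:120940499-121010092) encodes rabphilin-3A, a calcium-binding partner of Rab3. It was at 21.0, 22.1, 22.9 and 38.1 FPKM in CONTROL-VEH, and in OGD-VEH at 15.0, 11.3, 11.7 and 9.32, and at 21.3, 25.0, 23.1 and 29.4 FPKM in CONTROL-TIA and 16.3, 17.1, 17.8 and 10.9 FPKM in OGD-TIA. No OGD culture reached the lowest CONTROL culture, and culture 4 stood above the other CONTROL-VEH cultures. *Rph3a* had a log2 fold change of -1.10 ± 0.23 (padj = 0.0357, exact permutation p = 0.0286) without TIA and of -0.68 ± 0.18 (padj = 0.134) with TIA, the lowest padj of the 44 genes in the TIA arm.

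The double C2 domain proteins *Doc2a* and *Doc2b*, sensors for spontaneous and asynchronous release, had similar log2 fold changes without TIA (-1.49 ± 0.40 and -1.50 ± 0.41, padj = 0.0518 and 0.0528). Over both arms they were DEGs, with log2 fold changes of -1.28 and -1.0 (-0.92 and -1.0 with isoforms weighted by length). *Syt4*, *Syt5* and *Syt7* lay between -0.96 and -1.04 without TIA (padj 0.0556 to 0.0911) and passed padj over both arms. *Syt11*, a synaptotagmin that does not bind calcium, was at 181 ± 23.8 FPKM without OGD and 164 ± 23.2 FPKM with it (log2 fold change -0.14 ± 0.13, padj = 0.466), with its highest OGD value, 198 FPKM, in culture 12. *Syt12* was near 1 FPKM in all groups, and its log2 fold change of 0.14 ± 0.25 without TIA (padj = 0.710) changed sign with array quality weights.

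The SNARE genes and their partners comprised 10 members, of which 2 were DEGs without TIA and 9 passed padj over both arms. *Napb* (chr2:148693985-148732467) encodes beta-SNAP, which recruits the ATPase NSF to used SNARE complexes. It was at 59.8, 59.3, 65.1 and 70.2 FPKM in CONTROL-VEH, and in OGD-VEH at 48.6, 29.5, 30.8 and 18.8, and at 59, 58.1, 57.1 and 61.8 FPKM in CONTROL-TIA and 51.7, 49.7, 51.9 and 29.3 FPKM in OGD-TIA. The CONTROL cultures lay close together and none of the OGD cultures reached them. For *Napb* the log2 fold change was -1.07 ± 0.25 (padj = 0.0444, exact permutation p = 0.0286) without TIA and -0.41 ± 0.18 (padj = 0.266) with TIA.

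*Cplx2* (chr13:54371349-54383917) encodes complexin-2, a clamp and activator of the SNARE complex, and is listed with 1 isoform, so that no summing was involved. It stood at 87.3, 101, 111 and 93.4 FPKM in CONTROL-VEH, and in OGD-VEH at 70.5, 47.2, 53.0 and 29.8. With TIA they were 85.9, 97.7, 105 and 95.7 FPKM in CONTROL-TIA and 78.4, 76.8, 88.6 and 41.4 FPKM in OGD-TIA, where culture 15 overlapped CONTROL-TIA culture 5. For *Cplx2* the log2 change was -1.03 ± 0.24 (padj = 0.0437, exact permutation p = 0.0286) without TIA and -0.48 ± 0.22 (padj = 0.277, exact permutation p = 0.0571) with TIA.

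The core SNARE genes form the complex that fuses the membranes. In the vehicle arm *Snap25* was at 285 ± 20.3 FPKM in controls and 156 ± 58.3 FPKM after OGD (log2 fold change -0.95 ± 0.26, padj = 0.0539), *Stx1a* at 183 ± 16.6 and 106 ± 36.8 FPKM (-0.86 ± 0.24, padj = 0.0578), and *Vamp2* at 449 ± 23.6 and 325 ± 79.1 FPKM (-0.50 ± 0.16, padj = 0.0736). All 3 passed padj over both arms (0.0105, 0.0127 and 0.0208). The isoforms of *Snap25* with 2116 and 1014 bases fell by 0.62 and 0.69 on the log2 scale over both arms, and the 2116-base isoform made up 70.6 to 79.6% of the sum in every culture. Log2 fold changes without TIA were -0.99 for *Nsf*, the ATPase that takes used SNARE complexes apart, -1.06 for *Sncb*, which encodes beta-synuclein, and -0.58 for *Cplx1*. The chaperone gene *Dnajc5* fell by 0.55 (padj = 0.0470). Of these, only *Dnajc5* passed padj without TIA, while each did over both arms. *Vamp1* was the only SNARE gene that passed in neither fit (log2 fold change -0.39 ± 0.47, padj = 0.582), and its sum followed a 413-base isoform that was at 12.4 FPKM in one CONTROL-VEH culture and 2.18 FPKM in another.

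Of the 12 active zone and priming genes, 2 were DEGs without TIA and 9 passed padj over both arms. *Erc2* (chr14:27622428-28478537) encodes ELKS2/CAST, a scaffold of the active zone. It was at 56.2, 47.2, 72.9 and 55.3 FPKM in CONTROL-VEH, and in OGD-VEH at 27.6, 18.0, 20.9 and 12.4, and at 36.8, 44.2, 34.7 and 65.5 FPKM in CONTROL-TIA and 32.6, 35.8, 32.7 and 18.2 FPKM in OGD-TIA. In the vehicle arm all OGD cultures, culture 9 included, were clearly below the CONTROL cultures, whereas in the TIA arm culture 14 overlapped CONTROL-TIA culture 7. *Erc2* had a log2 fold change of -1.59 ± 0.24 (padj = 0.0288, exact permutation p = 0.0286) without TIA and of -0.60 ± 0.27 (padj = 0.260, exact permutation p = 0.0571) with TIA. When isoforms were weighted by length it was -1.07 without TIA, and over both arms -0.73 in place of -1.09. A 429-base isoform was at a mean of 4.95 FPKM in CONTROL-VEH and 0.002 FPKM in CONTROL-TIA.

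*Rims1* (chr1:22286251-22805994) encodes RIM1, which links Rab3 on the vesicle to calcium channels and Munc13. It was at 30.7, 39.1, 31.6 and 37.9 FPKM in CONTROL-VEH, and in OGD-VEH at 24.2, 18.3, 19.3 and 10.4, and at 30.1, 26.5, 36.9 and 31.0 FPKM in CONTROL-TIA and 30.3, 30.3, 35.3 and 18.9 FPKM in OGD-TIA. The vehicle groups did not overlap, but with TIA cultures 13 to 15 were within the CONTROL range and only culture 16 was below it. *Rims1* had a log2 fold change of -1.0 ± 0.25 (padj = 0.0461, exact permutation p = 0.0286) without TIA and of -0.14 ± 0.20 (padj = 0.711, exact permutation p = 0.6) with TIA. Its paralog *Rims2* was at 15.5 ± 2.03 FPKM without and 15.9 ± 2.44 FPKM with OGD, a log2 fold change of 0.03 ± 0.15 (padj = 0.898) whose sign turned under median-ratio scaling and length weighting.

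*Rab3c*, a vesicle GTPase, had a log2 fold change of -0.87 ± 0.18 without TIA (42.1 ± 2.60 to 23.6 ± 6.13 FPKM, padj = 0.0383), and its relative *Rab3a* had a log2 fold change of -0.70 (padj = 0.0739). The giant scaffolds *Pclo* (-0.94) and *Bsn* (-0.63), the priming factor *Unc13a* (-0.64) and the liprin gene *Ppfia3* (-0.50) did not pass padj without TIA (0.0521 to 0.0918), and did over both arms (0.01 to 0.0258). *Cadps*, which primes dense-core vesicles, and *Ica1* passed in neither fit (-0.20 and -0.55, padj = 0.291 and 0.140), and *Cadps2*, at 5.94 ± 2.63 FPKM in CONTROL-VEH, passed only over both arms (padj = 0.0412).

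In the group of 5 endocytosis genes no member was a DEG, and 4 passed padj over both arms. *Sh3gl2* (chr4:85205126-85639195), which encodes endophilin-A1, had the smallest p in this group. It was at 78.9, 80.1, 78.6 and 105 FPKM in CONTROL-VEH, and in OGD-VEH at 67.3, 42.1, 42.5 and 44.2, and at 86.5, 69.0, 84.0 and 80.0 FPKM in CONTROL-TIA and 70.4, 66.3, 66.3 and 45.5 FPKM in OGD-TIA. Cultures 10 to 12 were nearly equal, and culture 9 stood apart from them. On the log2 scale the change was -0.82 ± 0.18 (padj = 0.0407, exact permutation p = 0.0286) without TIA and -0.38 ± 0.15 (padj = 0.229, exact permutation p = 0.0571) with TIA. *Dnm1*, the neuronal dynamin that cuts vesicles from the membrane, had a log2 fold change of -1.0 ± 0.28 (padj = 0.0579). It was -0.66 for *Amph*, which recruits dynamin (padj = 0.0532), -0.59 for *Synj1*, a lipid phosphatase that uncoats vesicles (padj = 0.170), and -0.34 for *Bin1*, a relative of *Amph* (padj = 0.0843).

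**Figure D3:**
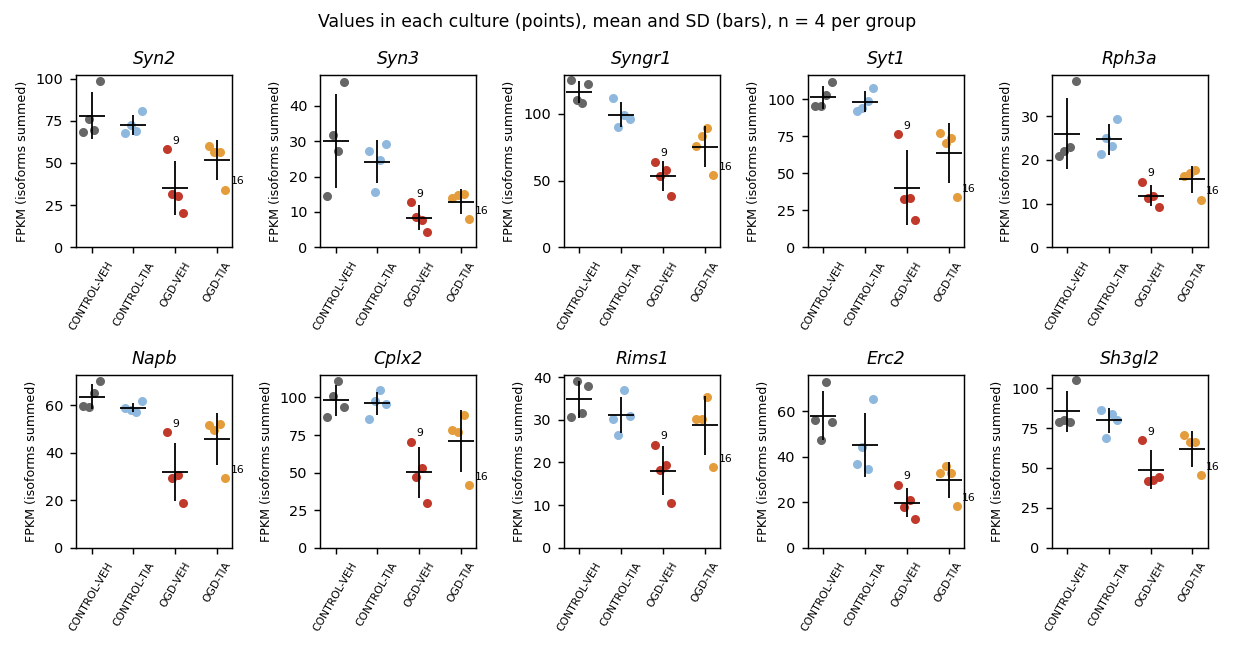
Points are the summed FPKM of a culture for the 9 DEGs and *Sh3gl2*, with horizontal marks for the group mean and vertical bars for the SD (n = 4), and cultures 9 and 16 are numbered. In all 10 panels the OGD-VEH points lie below all CONTROL-VEH points, culture 9 is the highest of OGD-VEH and culture 16 the lowest of OGD-TIA.

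Promoter sequences are shown for *Syngr1* and *Erc2*, the DEGs with the smallest p that have a single RefSeq start within 100 bases of the annotated gene start. Each runs from 250 bases before to 50 after the RefSeq start (GRCm38.p6, plus strand, chr15:80091084-80091383 and chr14:27622157-27622456). Capitals mark matches, on either strand, to the motifs searched. These were the GC box, spelled GGGCGG, and the CCAAT box, spelled by its name. The TATA box was searched as TATAAA and the E-box as CACGTG. The cyclic AMP response element was searched as TGACGTCA, and the left part of the RE1 element of neuronal genes as CAGCACC.
*Syngr1*: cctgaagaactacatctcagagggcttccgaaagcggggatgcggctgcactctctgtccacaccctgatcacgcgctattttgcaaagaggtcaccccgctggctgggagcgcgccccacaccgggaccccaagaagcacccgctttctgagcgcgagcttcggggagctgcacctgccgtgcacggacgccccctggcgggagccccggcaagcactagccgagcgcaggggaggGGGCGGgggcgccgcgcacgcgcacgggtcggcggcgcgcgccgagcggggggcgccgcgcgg
*Erc2*: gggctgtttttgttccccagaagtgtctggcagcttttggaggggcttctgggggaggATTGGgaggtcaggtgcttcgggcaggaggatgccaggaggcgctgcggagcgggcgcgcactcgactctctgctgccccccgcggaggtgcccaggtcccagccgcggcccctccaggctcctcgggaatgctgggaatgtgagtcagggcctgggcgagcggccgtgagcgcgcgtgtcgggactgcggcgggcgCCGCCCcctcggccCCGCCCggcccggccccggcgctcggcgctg
*Syngr1* held 1 GC box and *Erc2* held 2 GC boxes and 1 CCAAT box, and neither held a TATA box. RefSeq gave 41 promoters for 31 of the 44 genes. Of the 41, 24 held a GC box (58.5%, against 35.7% of 32851 mouse promoters of this length), 12 a CCAAT box (29.3% against 37.4%), 4 a TATA box (9.76% against 13.6%), 4 an E-box (9.76% against 7.15%), 4 the RE1 part (9.76% against 7.14%) and 2 the cyclic AMP response element (4.88% against 1.79%), those of *Syn1* and *Sh3gl2*. Promoters of one gene can overlap, and a match shows only that these letters occur.

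Some relatives within a gene family moved unequally. The difference of the log2 values of each pair of paralogs was compared between OGD and CONTROL within each arm, by an exact permutation test over 4900 assignments, for 26 pairs in 10 families. In 7 pairs the adjusted p was at most 0.05, and these 7 also passed when isoforms of the same cultures were weighted by length. The pairs were added after values were seen, so these p values describe the pairs and cannot serve as a test. *Syt1* was lower after OGD relative to each of the other 5 synaptotagmins among the 44 genes. On the log2 scale, the OGD effect on *Syt1* minus that on *Syt4* was -0.45 ± 0.08 (SE, exact permutation p = 0.000408, adjusted p = 0.00265). It was -0.44 ± 0.11 against *Syt5* (adjusted p = 0.00849), -0.47 ± 0.12 against *Syt7* (adjusted p = 0.0141), -1.0 ± 0.30 against *Syt11* (adjusted p = 0.00265) and -0.97 ± 0.26 against *Syt12* (adjusted p = 0.0258). Synaptotagmins outside the 44 were not compared in this way, and over both arms *Syt10*, *Syt13* and *Syt17* had log2 fold changes of -1.09, -1.12 and -1.09, close to -1.11 for *Syt1*. *Syn1* was higher relative to *Syn2* by 0.41 ± 0.08 and relative to *Syn3* by 0.88 ± 0.19 (adjusted p = 0.00265 each). With isoforms weighted by length these values were 0.46 and 0.43. The value of *Syn2* relative to *Syn3* then went from 0.48 to -0.03, so a larger fall of *Syn3* than of *Syn2* depended on the summing of isoforms. The p of 0.000408 is the smallest these permutations can give. Leaving out any 1 culture kept 6 of the 7 pairs past an adjusted p of 0.05, and the pair *Syt1* and *Syt12* kept it in 10 of 16 cases. For *Rims1* and *Rims2* the difference was -0.53 ± 0.17 (adjusted p = 0.0588), and for *Doc2a* and *Doc2b* it was -0.27 ± 0.25 (adjusted p = 0.457).

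When each isoform was fitted by itself over both arms, 198 isoforms of the 44 genes were tested. Of these, 41 isoforms of 30 genes were lower with a padj up to 0.05 (20.7%, against 3.5% of 53201 isoforms), and 2 were higher (1.01%, against 5.14%). The isoforms that rose were a 3660-base isoform of *Cadps*, at a mean of 0.623 FPKM in vehicle controls and 2.19 FPKM after OGD, and a 918-base isoform of *Vamp2*, at 4.62 and 6.88 FPKM. Long isoforms of *Syp* (2591 bases, log2 fold change -0.73), *Sv2b* (5307 bases, -0.84), *Snap25* (2116 bases, -0.62), *Pclo* (20084 bases, -0.72) and *Bsn* (15938 bases, -0.63) were among those that fell.

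*Bin1*, which encodes amphiphysin-2, is listed with 2 isoforms, and the longer one made up a smaller share in part of the OGD cultures. The 2406-base isoform has 19 coding exons and the 2091-base isoform has 15, and the 4 exons found only in the longer one add 333 coding bases. The longer isoform was at 51.2 to 66.2 FPKM in the CONTROL cultures and at 55.9, 29.5, 32.1 and 21.3 FPKM in OGD-VEH, while the shorter one was at 7.63 to 21.0 FPKM in the CONTROL cultures and at 14.3, 30.8, 28.0 and 30.8 FPKM in OGD-VEH. The longer isoform made up 76.1 ± 4.87% (SD, n = 4) of *Bin1* in CONTROL-VEH and 55.7 ± 16.8% in OGD-VEH, and 80.5 ± 6.73% in CONTROL-TIA and 68.2 ± 12.4% in OGD-TIA. Cultures 10, 11, 12 and 16 were at 49, 53.4, 40.9 and 51.6%, below the CONTROL range of 70.9 to 89.2%, culture 15 was just below it at 66.7%, and cultures 9, 13 and 14 were within it. The mean difference over both arms was -16.4 percentage points (exact permutation p = 0.0147), and lay between -20.3 and -13.6 when 1 culture was left out, with p up to 0.0282. In each arm alone the exact permutation p was 0.114. This gene was singled out after its values were seen, so these p values cannot serve as a test of the shift. Fitted by itself over both arms, the longer isoform had a log2 fold change of -0.63 ± 0.18 (limma, padj = 0.0433). The shorter one had 0.49 ± 0.24 (limma, padj = 0.225).

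**Figure D4:**
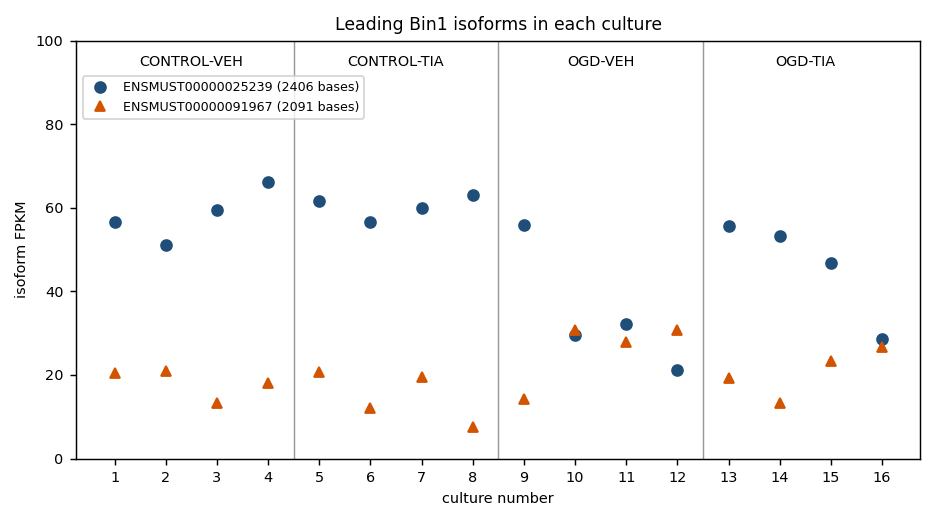
Points are the FPKM of the isoforms of *Bin1* with 2406 bases (circles) and 2091 bases (triangles) in each of the 16 cultures. The circles lie far above the triangles in all CONTROL cultures and in cultures 9 and 13 to 15, and the isoforms are nearly level in cultures 10, 11 and 16 and reversed in culture 12.

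With TIA most presynaptic genes had an OGD effect nearer to 0, but the difference between the arms passed padj for no gene in the main fit. In alternatives with all cultures weighted equally, 3 genes passed without a filter on low values and 1 without culture 3, none of them presynaptic. In OGD-TIA vs. CONTROL-TIA no presynaptic gene and no gene of the 16242 tested was a DEG or had a padj of at most 0.05 (limma), and 11 presynaptic genes were lower at an unadjusted p under 0.05 (25.0%, against 7.92%). Of all genes, 3174 had an unadjusted p under 0.05. The study, which used the DESeq2 package with the same thresholds, did report DEGs in this comparison. No presynaptic gene passed padj in any alternative, while of all genes 193 did with array quality weights (cultures unlike their group count for less), 326 with isoforms weighted by length and 27 without culture 16. The 11 became 5 without culture 8 and 18 without culture 13 or culture 16. The median log2 fold change of the 44 was -0.35, with 43 of 44 negative, against -0.94 in the vehicle arm, and it was -0.19 without culture 16. The interaction (OGD effect in the TIA arm minus OGD effect in the vehicle arm, limma over 16 cultures) was positive in 41 of 44 genes with a median of 0.52, and the lowest padj was 0.722. At an unadjusted limma p under 0.05, 4 genes were above 0 (9.09%, against 2.66%). They were *Syngr1* (0.72), *Rims1* (0.86), *Erc2* (0.99) and *Rab3c* (0.52). These values include the TIA effect without OGD, which in the same order was -0.23, -0.16, -0.38 and -0.05. After OGD the TIA effect was 0.49, 0.69, 0.6 and 0.47. The number of presynaptic genes with an interaction above 0 at an unadjusted p under 0.05 was 28 without culture 9 (against 8.2% of all genes). It was 22 without culture 16 (against 7.03%), and still none passed padj. With array quality weights 2 presynaptic genes passed padj, among 217 of all genes.

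In OGD-TIA vs. OGD-VEH, 39 of 44 genes had a positive log2 fold change, with a median of 0.48 against -0.05 for all genes. None passed padj (limma, lowest 0.551), and *Syngr1* and *Rims1* were higher at an unadjusted p under 0.05 (4.55%, against 2.87%). The exact permutation p of both was 0.0857. This count was 25 without culture 9 (against 9.01% of all genes), 20 without culture 16 (against 7.31%) and 0 without any other OGD culture, and it was 18 with all 16 cultures in one fit (against 6.91%). With array quality weights 32 genes were higher at this level (against 14.2%), 16 passed padj and 3 were DEGs, where of all genes 1540 passed padj and 408 were DEGs, 146 of them higher. Without OGD, in CONTROL-TIA vs. CONTROL-VEH, the median was -0.04 and no gene passed padj (limma), while *Syngr1* (-0.23), *Syngr3* (-0.24) and *Vamp1* (-1.15) were lower at an unadjusted p under 0.05 (6.82%, against 2.03%). The *Vamp1* sum followed its 413-base isoform, at 2.18 to 12.4 FPKM in CONTROL-VEH and 0 to 2.63 FPKM in CONTROL-TIA. The comparisons share groups of cultures, so their values are not independent.

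Other genes of the release machinery moved in both directions. Of 56 such genes on a list of relatives and partners of the 44, 52 were tested without TIA, and 40 had a negative and 12 a positive log2 fold change, with a median of -0.46. Of these, 8 were lower and 2 higher with a padj of at most 0.05, where 3.45% of all genes were lower. Over both arms 32 were lower and 4 higher, where 13.7% of all genes were lower. Without TIA, those with the smallest p were *Syt10* (-1.68, padj = 0.0336), *Atp6v1a*, a subunit of the proton pump that acidifies vesicles (-0.59, padj = 0.0336), and *Syt13* (-1.49, padj = 0.0347). The 2 that rose, named after their values were seen, were *Snap23* (1.24, padj = 0.0444), the broadly expressed relative of *Snap25*, and *Sv2c* (1.0, padj = 0.0465).

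General neuronal markers were also lower over both arms. The 10 pan-neuronal genes that are not presynaptic had a median log2 fold change of -0.48 without TIA, and none passed padj (3.45% of all genes were lower by it). Over both arms 6 of 10 did, all lower, against 13.7% of all genes. Per culture, the median of the pan-neuronal list was -0.23, -0.42, -0.46 and -1.16 in cultures 9 to 12 on the log2 scale, where the presynaptic genes were at -0.27, -0.91, -0.87 and -1.55. In cultures 13 to 16 the pan-neuronal list was at -0.10, -0.13, -0.09 and -0.81 and the presynaptic genes at -0.12, -0.24, -0.18 and -0.88. In both lists culture 9 was the nearest of OGD-VEH to the CONTROL cultures and culture 12 the farthest, and the part of neuron number in the presynaptic values was not tested.

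Some markers of other neural cells rose after OGD. Of all genes, 1380 of 16346 tested passed padj without TIA and 5302 of 16313 over both arms, in either direction. The summed FPKM of the 7 oligodendrocyte lineage markers was 129 to 154 in CONTROL-VEH and 170 to 493 in OGD-VEH, and 115 to 140 in CONTROL-TIA and 157 to 321 in OGD-TIA. *Olig1* and *Sox10*, which mark the lineage from its precursors on, rose in OGD-VEH (log2 fold changes 1.25 and 1.46, padj = 0.0339 and 0.0488), and the precursor marker *Pdgfra* had a value of 1.47 (padj = 0.0641). Over both arms *Olig1*, *Sox10* and *Pdgfra* all rose (0.95, 1.17 and 1.19, padj = 0.00124, 0.00781 and 0.0112). The myelin gene *Mbp* fell (-0.88, padj = 0.0493), and *Mog* and *Mag*, which mark mature oligodendrocytes, were at no more than 0.08 and 0.744 FPKM in any culture. The 6 neural progenitor markers summed to 106 to 163 FPKM in vehicle controls and 148 to 427 FPKM after OGD, and 1 of them, *Nes*, passed padj without TIA (1.71, padj = 0.0427). Over both arms 4 of the 6 rose, namely *Nes* (1.26, padj = 0.00367), *Sox2* (0.83, padj = 0.0131), *Mki67* (0.99, padj = 0.0101) and *Top2a* (0.79, padj = 0.0218). The 7 astrocyte markers summed to 723 to 1540 FPKM in vehicle controls and 983 to 2470 FPKM after OGD. None of them passed padj without TIA, and 1, *Aldh1l1*, rose over both arms (1.03, padj = 0.012). The 6 microglia markers summed to at most 3.03 FPKM in any culture, and the 6 fibroblast and endothelial markers to at most 17.1 FPKM, where they were at 11.2 to 17.1 FPKM in vehicle controls and 3.01 to 10.5 FPKM after OGD. *Cldn5* and *Cx3cr1* were at or near 0 throughout. Cultures 10, 11, 12 and 16 had both the lowest presynaptic and the highest oligodendrocyte lineage and progenitor values, and the part of cell composition in the presynaptic values was not tested.

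**Figure D5:**
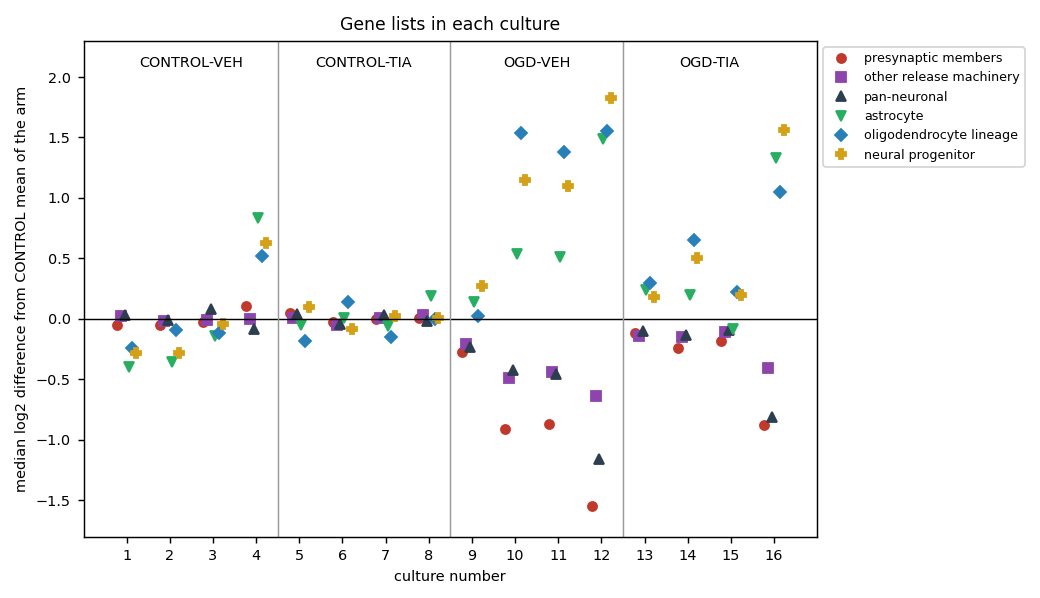
Points are the median, over the genes of a list, of the log2(FPKM + 0.1) difference from the mean of the CONTROL cultures of the arm, for each culture. The presynaptic genes are lowest in cultures 10, 11, 12 and 16 (-0.91, -0.87, -1.55 and -0.88), where oligodendrocyte lineage markers are highest (1.54, 1.38 and 1.55 in the first 3), and all lists are within 0.9 of 0 in CONTROL cultures.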

How the data were processed

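Libraries of stranded mRNA from 16 cultures (4 per group) were sequenced with 50-base single-end reads, of which 18 to 23 M per sample were aligned per the labels. The authors mapped them with STAR to GRCm38, and the deposited FPKM values (fragments scaled to isoform length and sequencing depth, estimated per isoform with eXpress, then TMM scaled, as the file is named) were used. No read counts were used, so depth was worked out from the value of a single read in genes with 1 isoform. From 135276 lines, 74 without identifier were left out. Isoform FPKM were summed per symbol. Genes averaging 0.5 FPKM or more in the compared cultures were tested on log2(FPKM + 0.1) with limma 3.58.1 (R 4.3.3, mean-variance trend, Benjamini-Hochberg), so fold changes are on that scale and understate those of low genes. The procedure was tested on simulated data in which both groups had the spread of the CONTROL-VEH cultures. The wider spread of the OGD cultures was not simulated. Each comparison of 2 groups was fitted on its 8 cultures, and the OGD effect over both arms and the interaction on all 16. For single values, exact permutation tests over cultures (two-sided) were run in Python 3.11.15 with numpy 2.4.6 and scipy 1.17.1. Gene positions are from GENCODE (GRCm38). All 44 genes were named at least once, with values in every culture for DEGs without TIA and the smallest p in each of 5 roles. Members and lists were chosen with earlier results of these data known. Isoform fits, pairs of paralogs, the share of Bin1 isoforms and the promoters shown were added after values were seen. Where cultures share a preparation, p measures the spread between these cultures, which may be technical. Alternatives are given in the closing section.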

Additional observations from a re-analysis of the deposited data

Results flagged for a closer look

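A culture was listed where its gap to the nearest of the others on the log2 scale, as a share of the group's range, exceeded Dixon's critical value for 4 values, over 176 groups of 4 values. This was so in 22 groups, of which 16 were culture 16 as the lowest of OGD-TIA, and chance gives about 1 in 20 groups. In culture 16 the values were 67.7 FPKM for *Syn1*, 34.1 for *Syn2*, 7.88 for *Syn3*, 73.9 for *Syngr3*, 34.0 for *Syt1*, 67.2 for *Syt4*, 7.34 for *Doc2b*, 104 for *Stx1a*, 29.3 for *Napb*, 93.5 for *Cplx1*, 252 for *Rab3a*, 20 for *Bsn*, 12 for *Pclo*, 18.2 for *Erc2*, 44.8 for *Ica1* and 45.5 for *Sh3gl2*. Culture 4 was the highest of CONTROL-VEH for *Rph3a* (38.1 FPKM), *Cplx1* (223 FPKM) and *Sh3gl2* (105 FPKM). The others were culture 5 for *Doc2a* (37.9 FPKM, highest of CONTROL-TIA), culture 13 for *Vamp1* (11.8 FPKM, highest of OGD-TIA) and culture 9 for *Sh3gl2* (67.3 FPKM, highest of OGD-VEH).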

How the results depend on the processing

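No paired analysis was possible because the labels number the cultures 1 to 16 across the groups and give groups no number in common, so whether cultures of different groups share a preparation is not given in the sources used here. Without TIA, the number of presynaptic DEGs was 9 with a pseudocount of 1 or 0.01 and with median-ratio scaling (of 509, 642 and 650 in all). It was 11 with a minimum mean of 2 FPKM (of 637 in all) and 13 with isoforms weighted by length (of 1122 in all). It was 0 without a filter on low values, 15 with array quality weights and 16 with all 16 cultures in one fit, and between 0 and 25 when 1 culture was left out. All genes gave 36, 1929 and 1390 DEGs with these settings, and between 1 and 2186 when 1 culture was left out, against 668. Over both arms, presynaptic DEGs numbered 6 (of 783 in all), with 2 when isoforms were weighted by length (of 593 in all). They numbered between 2 and 9 when 1 culture was left out (of 548 to 1159 in all), with 2 without culture 12 and 2 without culture 16. By padj alone 36 were lower, and 30 to 39 in every alternative, against 5.76 to 17.6% of all genes. In OGD-TIA vs. OGD-VEH, array quality weights gave 3 presynaptic DEGs (of 408 in all) where none was found otherwise. For the interaction these weights gave 2 presynaptic genes past padj (of 217 in all). In OGD-TIA vs. CONTROL-TIA no alternative gave a presynaptic gene past padj, while all genes gave 80 DEGs with these weights, 75 with length weighting and 16 without culture 16. The pairs of paralogs past an adjusted p of 0.05 numbered 7, and 13 with length weighting, and between 6 and 11 when 1 culture was left out. The sign of *Rims2* without TIA turned with median-ratio scaling (-0.05), length weighting (-0.08), and without culture 3 (-0.04), 9 (-0.04) or 11 (-0.03), with a range from -0.04 to 0.11 when 1 culture was left out, that of *Syt12* with array quality weights (-0.06), and that of *Vamp1* over both arms with length weighting (0.01) and without culture 10 (0.03, range -0.29 to 0.03). The cause was not tested. Median-ratio scaling brought the median of all genes from 0.10 to 0.02 and that of the presynaptic genes from -0.94 to -1.02. FPKM rest on probabilistic assignment of short reads to isoforms, and 12 of the 44 genes draw over 50% of their FPKM from isoforms under 700 bases.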
